A study of Mus musculus with 2 samples.

Results

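Gland cells of the adult mouse vomeronasal organ (VNO) were taken as barcodes in which 4 lipocalin genes, Lcn3, Lcn4, Obp2a and Obp2b, together made up at least 5% of all unique molecular identifiers (UMIs, the mRNA molecules counted in a cell) and in which Dmbt1 had at least 3 UMIs. A barcode also had to hold 200 to 9000 genes and at least 3000 UMIs, with at most 5% of its UMIs from the mitochondrial genome. These conditions left 238 cells, 128 in library 1 and 110 in library 2. They were 238 of 24084 barcodes and 3.14% (exact 95% interval 2.76 to 3.56, counting error only) of the 7585 barcodes that met the conditions on genes, UMIs and mitochondrial share. The share was 3.16% in library 1 and 3.11% in library 2. The cells were thus chosen by the measured UMIs of these 5 genes, and their levels are given as a description with no test.

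Whole VNOs of wild-type C57BL/6J males at postnatal day 60 were dissociated with papain and collagenase, frozen, thawed and captured in droplets as 2 libraries with a 3′ tag kit. Organs of 5 mice were used, and how they were divided between the libraries is not stated, so both libraries may hold cells of the same suspension. There was no treated or mutant group. Comparisons were therefore made between cell groups of the same 2 libraries, and their p-values measure only the spread between these libraries, which may be technical.

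The VNO is a blind-ended tube that detects pheromones, and molecules reach its sensory neurons only in fluid. Vomeronasal glands lie beside the lumen and release their secretion into it. Lipocalins are small secreted proteins with a barrel-shaped pocket that binds hydrophobic molecules, and the odorant-binding proteins belong to this family. Gland cells of this kind carry an extensive endoplasmic reticulum (ER), where secreted proteins are folded before export. RNA was measured here, and secretion was not.

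Of the 4 lipocalin genes, 3 lie together on chromosome 2 and the fourth is on the same chromosome. On mouse build GRCm38 (mm10) the transcripts of Obp2a (chr2:25700043-25703326), Obp2b (chr2:25737009-25740097) and Lcn3 (chr2:25765569-25768099) are read from the plus strand, as is Lcn11 (chr2:25777017-25780279), and the 4 genes from Obp2a to Lcn11 span 80.2 kb. Lcn4 (chr2:26667674-26671282) lies 887 kb further on and is read from the minus strand. The 150 bases upstream of each start are shown because the genes varied unequally from cell to cell, as described below. The sequences are RefSeq promoter entries of GRCm38, 5′ to 3′ on the strand of the gene, cut at the more upstream of the RefSeq and GENCODE starts. Capitals in the first 3 mark the 2 runs of at least 10 bases that Obp2a, Obp2b and Lcn4 share, and capitals in Lcn3 mark TATAAA.
Obp2a (chr2:25699893-25700042, plus strand): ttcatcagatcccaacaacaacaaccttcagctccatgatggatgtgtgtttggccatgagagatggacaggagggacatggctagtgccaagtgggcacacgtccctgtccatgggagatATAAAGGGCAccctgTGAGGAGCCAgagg
Obp2b (chr2:25736857-25737006, plus strand): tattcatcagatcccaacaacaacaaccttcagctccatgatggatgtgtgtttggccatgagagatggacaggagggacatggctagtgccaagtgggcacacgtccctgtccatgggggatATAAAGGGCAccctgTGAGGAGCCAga
Lcn4 (chr2:26671283-26671432, minus strand): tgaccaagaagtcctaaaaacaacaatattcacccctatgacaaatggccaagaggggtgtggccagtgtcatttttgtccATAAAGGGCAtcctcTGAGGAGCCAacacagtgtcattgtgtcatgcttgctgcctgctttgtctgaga
Lcn3 (chr2:25765383-25765532, plus strand): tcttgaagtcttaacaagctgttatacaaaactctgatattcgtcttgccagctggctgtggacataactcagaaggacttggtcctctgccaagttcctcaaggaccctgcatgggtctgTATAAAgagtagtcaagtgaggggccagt

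The windows of Obp2a and Obp2b matched in 147 of 152 alignment columns (96.7%), whereas all other pairs among Obp2a, Obp2b, Lcn4, Lcn3 and Lcn11 matched in 49.1 to 58.9% of columns. The shared run ATAAAGGGCA stood in 0.0517% of 32851 promoter windows of the same length on either strand (17 windows) and TGAGGAGCCA in 0.0791% (26 windows). TATAAA, which overlaps the first run in Obp2a and Obp2b, stood in 7.57% of windows (2488) and began 30, 28 and 29 bases before the window's end in Obp2a, Obp2b and Lcn3. The windows of Lcn3 and Lcn11 held neither run exactly. Near its end the Lcn3 window reads tgaggggcca, which departs from TGAGGAGCCA only in a g for an a. Only exact matches were counted, so the runs do not set Lcn3 clearly apart. A match of letters describes the sequence and is not a site. The annotated transcripts of Obp2a and Obp2b matched in 72.7% of columns and their last 300 bases, where 3′ tags fall, in 62.3%, with a longest shared run of 20 bases there. Over the whole transcripts the longest shared run was 130 bases. Some reads could thus still be assigned to either gene, so the level of Obp2b beside the far more abundant Obp2a is uncertain.

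Gland cells were deep. They held a median of 30626.5 UMIs (range 3127 to 143129) and 3208 genes, against a median of 8604 UMIs in the other cells that passed the filter, and their UMIs summed to 4504316 in library 1 and 3713030 in library 2. Their median mitochondrial share was 2.16%, against 3.57% in the other cells. Of all barcodes, 33 barcode sequences occurred in both libraries, none of them in gland cells. Scrublet called 1.19% of scored cells doublets in library 1 and 2.39% in library 2, and 1 gland cell was among them. The sums over gland cells differed between libraries by far more than sampling noise (chi-square per degree of freedom 12.9 over 6226 genes).

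The 4 lipocalin genes took 34.2% of all gland UMIs in library 1 and 27.4% in library 2. Per cell their share ran from 5.03% to 81.9% with a median of 23.7%. Obp2a gave 51.4% of these UMIs, Lcn3 40.9%, Lcn4 4.86% and Obp2b 2.91%. Genes of a few other secreted proteins were prominent as well. Wfdc18, a small whey acidic protein-type secreted protein, was the most abundant transcript of all, with 26.2% of gland UMIs in library 1 and 30.2% in library 2, ahead of Obp2a (18.3% and 13.1%) and Lcn3 (13.0% and 12.4%). Ltf, which encodes the iron-binding milk and tear protein lactoferrin, took 1.63% and 1.91%. A2ml1, an alpha-2-macroglobulin-like protease inhibitor, took 1.25% and 1.39%, and Dmbt1, a scavenger receptor-type mucosal glycoprotein, 0.960% and 1.09%. Pip, prolactin-induced protein of exocrine secretions, took 0.341% and 0.427%. The 8 most abundant genes together held 63.2% of gland UMIs, and the order of the first 3 was the same in both libraries.

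**Figure D1:**
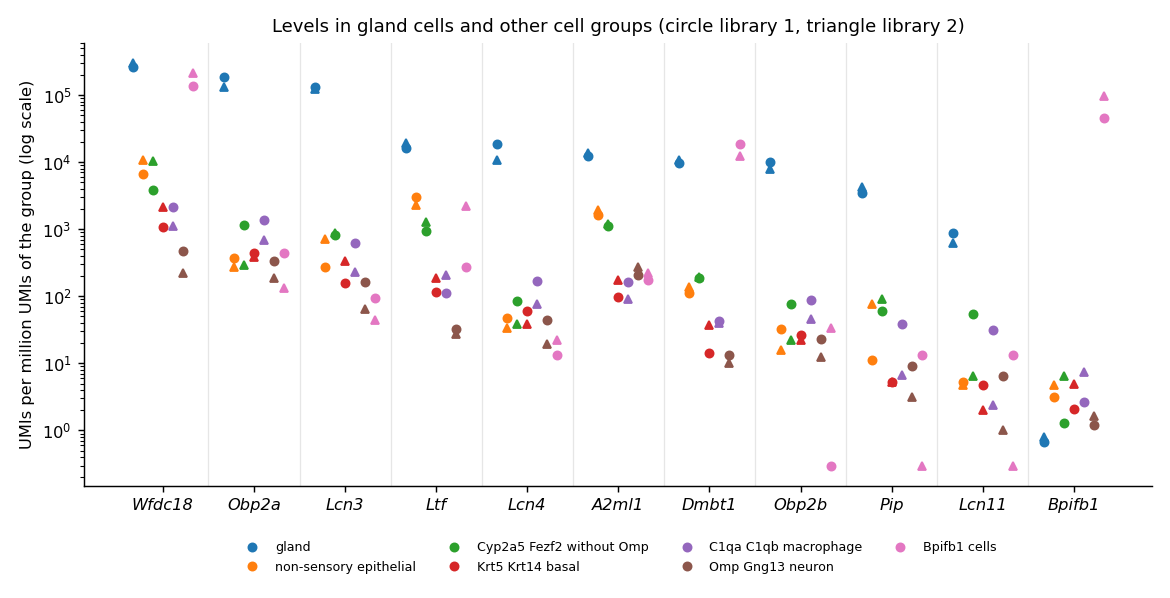
Level of 11 genes in gland cells and 6 other cell groups, as CPM (counts per 1000000 of all UMIs of the group) on a log scale, with circles for library 1 and triangles for library 2 and values of 0 drawn at 0.3. Gland cells are highest for 9 of the genes shown, the 9 Bpifb1 cells lie above them for Dmbt1 and Bpifb1, and Bpifb1 is near 1 CPM in gland cells.

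Most molecules of these genes in the whole series lay in the 238 cells. Gland cells held 87.3% of all Lcn3 UMIs of the 24084 barcodes, 84.2% of Obp2a, 83.9% of Pip, 81.5% of Lcn4, 80.6% of Obp2b, 69.0% of Lcn11 and 63.2% of Wfdc18. For Dmbt1 the share was 60.2% and for Ltf 34.5%, so that most Ltf molecules lay outside gland cells. The rest was not spread evenly. The 226 cells with Dmbt1 and a lipocalin share under 5%, described below, held 580569 Wfdc18, 71206 Ltf and 21556 Dmbt1 UMIs. The lipocalin genes were also found at low levels in other cell types. After every cell was thinned to 3000 UMIs, 77.0% of macrophages (C1qa and C1qb) and 46.3% of sensory neurons (Omp and Gng13) had an Obp2a UMI, against 93.3% of gland cells, and unthinned shares were 91.9%, 92.1% and 99.6% at median depths of 5853, 15056 and 30626.5 UMIs. For Lcn3 the thinned shares were 48.1%, 24.5% and 100%, and unthinned 67.9%, 72.7% and 100%. Macrophages held the 4 genes at 0.167% of their UMIs and neurons at 0.0438%, with Obp2a at 62.9% and 61.4% of the 4 in these groups. Free RNA in droplets gives such UMIs in cells that do not express a gene, so single UMIs of these genes mark no cell type here. Lcn11 was more restricted, with thinned shares of 45.0% in gland cells, 2.61% in macrophages and 0.812% in neurons (unthinned 76.1%, 4.99% and 3.94%).

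Of the 6 markers given for the type, 5 are genes of the rule, which asks for the 4 lipocalins as a sum and for Dmbt1. All 5 were above all other filtered cells, summed, in both libraries, which the choice of cells favours. Bpifb1, a secreted BPI fold protein of airway mucosa, was not. Its level was 0.666 CPM in library 1 and 0.808 in library 2, and 6 of 238 cells held a UMI (2.52%, against 3.01% of macrophages). Bpifb1 UMIs instead stood in 9 other cells, 5 of library 1 and 4 of library 2, with at least 3 each, at 45881 and 96005 CPM. In these 9 cells lipocalins took 0.0138 to 0.381% of UMIs, 6 met the Dmbt1 condition, and none met the gland rule. The data thus went against Bpifb1 as a marker of these cells.

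Of the markers of 12 other cell types, 2 were above the other filtered cells in gland cells, Sox10 of the 4 ensheathing cell markers and Myh11 of the 5 myoepithelial markers. The 5 sustentacular markers summed to 61.1 and 55.5 CPM in gland cells, mostly Cyp2a5. Of them Ermn, Cyp1a2 and Sec14l3 had no gland UMI, but Cyp1a2 and Sec14l3 were at 0 in the comparison cells below as well. The ciliated cell markers Foxj1, Ccdc153 and Tmem212 had no UMI in gland cells, which allows a level of up to 0.365 CPM. The summed level of the 8 neuronal markers was 297 and 268 CPM in libraries 1 and 2, of the 8 leukocyte markers 425 and 163, and of the 6 fibroblast and mural markers 134 and 120. At least 3 UMIs of vomeronasal receptor genes were found in 22 gland cells. These were shallower in library 1, where 15 such cells had a median of 8362 UMIs, than in library 2, where 7 had 23468.

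The threshold on lipocalins did not fall in a gap. Just inside it 11 cells had shares of 5.03 to 5.87%, and just outside 21 cells with enough Dmbt1 had shares of 4.05 to 4.96%. Between 2% and 5% lay 92 cells that met the Dmbt1 condition, between 1% and 2% lay 27, and under 1% lay 107. The 226 cells with Dmbt1 and a lipocalin share under 5% held Wfdc18 at 17.2% of UMIs in library 1 and 18.3% in library 2 and Ltf at 2.07% and 2.31%. Only 3 cells met every condition but that on Dmbt1. A further 51 barcodes failed only on mitochondrial share (5.04 to 46.8%), and 87 failed only on depth.

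The 4 lipocalin genes varied very unequally from cell to cell. Lcn3 was found in all 238 cells and was the steadiest of the 4 in these cells, with a median of 11.5% of the UMIs of a cell and quartiles of 7.77 and 15.7%. Obp2a had a lower median of 7.66% but a far wider spread, with quartiles of 0.924 and 23.6%, and it ran from 0 in 1 cell to 64.3%. Lcn4 had a median of 0.154% with quartiles of 0.0165 and 1.46%, and was at 0 in 23 cells. Obp2b had a median of 0.473%, and was at 0 in 26 cells. The ratio of the upper to the lower quartile was 2.02 for Lcn3, 25.5 for Obp2a, 18.7 for Obp2b and 88.7 for Lcn4. In the same cells it was 1.97 for Wfdc18, 2.32 for Dmbt1 and 2.11 for A2ml1. In libraries 1 and 2 the ratio was 2.19 and 1.92 for Lcn3, and 14.6 and 49.9 for Obp2a. The gland rule favours a steady Lcn3, since cells low in Obp2a met the limit on summed lipocalins mainly through Lcn3. The 60 cells with Obp2a under 1% of UMIs had medians of 12.7% for Lcn3 and 12.8% for the 4 genes together. Cells below the limit were left out. How far the rule sets the presence of Lcn3 in every cell and its narrow ratio was not tested.

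**Figure D2:**
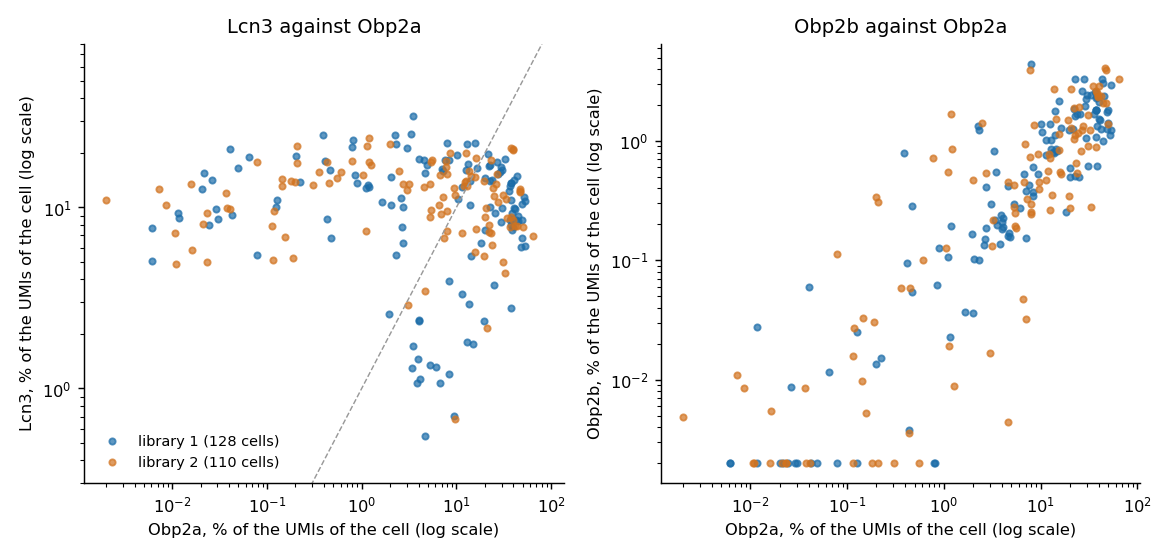
Each point is a gland cell (library 1 blue, library 2 orange), with axes giving the share of a gene in the UMIs of the cell on log scales, values of 0 drawn at 0.002% and a dashed line of equal shares on the left. Lcn3 stays within 0.544 to 31.9% of UMIs while Obp2a runs from 0 to 64.3%, and Obp2b follows Obp2a.

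Obp2a and Obp2b varied together across cells. Pearson's r was taken over the 128 cells of library 1 and the 110 of library 2, first on log2 of 1 plus the UMIs of a gene per 10000 UMIs other than the 5 rule genes. On this scale r of Obp2a and Obp2b was 0.922 and 0.879. Lcn4 had r of 0.647 and 0.551 against Obp2a and 0.684 and 0.607 against Obp2b. Lcn3 had r of 0.203 and 0.336 against Obp2a, 0.295 and 0.423 against Obp2b, and 0.283 and 0.551 against Lcn4, so that in library 2 Lcn4 followed Lcn3 as closely as it followed Obp2a. On plain shares of all UMIs of the cell, a scale added after seeing the data, r of Obp2a and Obp2b was 0.711 and 0.767, and r of Lcn4 was 0.490 and 0.566 against Obp2a and 0.0669 and 0.0227 against Lcn3. The sign for Lcn3 and Obp2a turned, to -0.105 and -0.137. Obp2a and Wfdc18 had r of -0.469 and -0.736 on plain shares and -0.0492 and -0.0880 on the first scale. Ltf ran against Obp2a on both, with -0.308 and -0.388 on the first and -0.495 and -0.533 on plain shares. The cells share a library and differ in depth, and plain shares have the same whole, so that no p is given.

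A group of cells low in Lcn3 lay mostly in library 1. Of 29 cells with Lcn3 under 5% of UMIs, 22 were of library 1 and 7 of library 2, and 26 had more Obp2a than Lcn3. They were shallow, with a median of 11003 UMIs against 33218 in the other 209 cells. Their median Wfdc18 share was 10.2% against 28.3%, and other gland products were lower too. In the 22 cells of library 1 median Dmbt1 was 0.200% and A2ml1 0.335%, against 1.02% and 1.34% in its other gland cells. Wfdc18 was at 6.90% against 26.9% there, and summed lipocalins at 8.93% against 28.6%. In the 7 cells of library 2 Wfdc18 was at 26.9% against 30.4%, and Dmbt1 at 0.541% against 1.12%. Whether the low cells are a separate kind of gland cell was not tested. At the other end 29 cells, 15 and 14 of the libraries, held Obp2a at under 0.1% of UMIs, with medians of 9.78% Lcn3 and 32.4% Wfdc18 at 25521 UMIs.

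**Figure D3:**
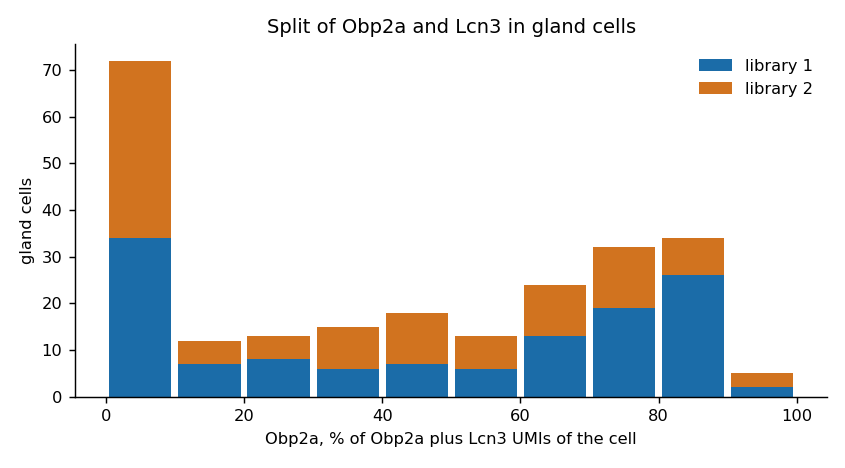
Number of gland cells by the share of Obp2a in the summed Obp2a and Lcn3 UMIs of the cell, in bins of 10 percentage points, stacked by library. The lowest bin holds 72 of 238 cells, and the 3 bins from 60 to 90% hold 24, 32 and 34 cells.

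The leading lipocalin was Lcn3 in 130 cells and Obp2a in 108, and no cell was led by Lcn4 or Obp2b. In library 1 the classes were near equal, with 62 Lcn3-led cells (48.4%, exact interval 39.5 to 57.4) and 66 Obp2a-led cells. In library 2 there were 68 Lcn3-led cells (61.8%, 52.1 to 70.9) and 42 Obp2a-led cells. These intervals cover counting error only, and whether the shares differ between libraries was not tested. The split was not clean, since 31 cells lay within 10 percentage points of an equal share. The 4 genes took 20.5% of UMIs in Lcn3-led cells and 44.5% in Obp2a-led cells. Set against UMIs other than the rule genes, median Lcn3 was nearly level, at 18.3% and 16.5% in Lcn3-led cells of the 2 libraries and 17.4% and 18.1% in Obp2a-led cells, while median Obp2a was 1.69% and 1.39% against 50.1% and 44.0%. The rule for the classes uses these genes, so the values are a description.

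Which other genes went with the leading lipocalin was tested on UMI sums per library and class, with the 5 rule genes taken out (edgeR quasi-likelihood test, 2 libraries per class, 10691 genes). At an adjusted p under 0.05, 11 genes were higher in Obp2a-led cells (0.103% of genes tested) and 29 in Lcn3-led cells (0.271%), in all 0.374%, and all 40 had the same sign in both libraries. Both classes come from the same 2 captures. With library as a block 104 genes passed, 32 and 72 in the 2 directions, and they included the 40. On the scale of all UMIs, where the median gene was shifted by -0.20 in Obp2a-led cells, 4 and 49 passed, 33 of them among the 40. In cells thinned to 3000 UMIs 2 and 9 passed, all 11 among the 40.

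Lcn11, the lipocalin gene next to Lcn3 on the chromosome, was higher in summed Obp2a-led cells. It held 2980 and 1648 UMIs in Obp2a-led cells of libraries 1 and 2, against 979 and 654 in Lcn3-led cells, a log2 fold change of 1.99 ± 0.21 (SE, adjusted p = 0.0021). Of the 5 members of the lipocalin list that could be tested Lcn11 was the only one past the threshold. It was very uneven among gland cells, at 0 in 57 of 238. Its median was 0.0156% of the UMIs of a cell and its 95th percentile 0.436%. Per cell, on the first scale above, r of Lcn11 in libraries 1 and 2 was 0.353 and 0.234 against Obp2a. Against Lcn3 it was 0.0811 and -0.0743, so Lcn11 followed Obp2a only loosely. Rnase1, a secreted ribonuclease, was higher by 2.14 ± 0.23 on the log2 scale (adjusted p = 0.0024), with 137 and 64 UMIs against 29 and 35. The other genes higher in Obp2a-led cells were Krt17, Prom2, Thbs1, Enho, Fam3c, Etv1, Socs3, Bri3bp and 2310057J18Rik. The last had 602 UMIs in 8 Obp2a-led cells, 49.0% of them in 1 cell, against 2 UMIs in Lcn3-led cells, and its adjusted p was 0.166 without the 22 cells that held receptor UMIs. Of the Krt17 UMIs of Obp2a-led cells 39.0% lay in 1 cell.

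Some genes of mucosal defence were higher in Lcn3-led cells. Of the 13 genes of the mucosal defence list that were tested, 4 were higher in Lcn3-led cells and none in Obp2a-led cells, and the list's median log2 fold change was -0.61 against -0.00 for all genes. Scgb1c1, a secretoglobin, had 184 and 154 UMIs in Obp2a-led cells and 3233 and 4832 in Lcn3-led cells, a change of -4.0 ± 0.19 (adjusted p = 8.7e-06). One Lcn3-led cell gave 29.3% of its UMIs, and it was found in 104 of 130 Lcn3-led cells and 56 of 108 Obp2a-led cells. Lower in Obp2a-led cells were also Ltf (-1.02 ± 0.12), Sftpd, the lung collectin surfactant protein D (-2.08 ± 0.18), and Wfdc2, a whey acidic protein-type inhibitor (-1.05 ± 0.13). Pip (-1.07 ± 0.14) and the WAP-type genes Wfdc3 (-2.84 ± 0.35) and Wfdc17 (-2.48 ± 0.23), which are on no list, went the same way. The 29 also held Serpina1e, the calcium-binding S100z, the kinase Sgk1 and Ramp1, a partner of calcitonin-type receptors (-2.54 ± 0.22, 47 UMIs against 391).

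Of 11 genes of odorant and xenobiotic metabolism, 2 were higher in Lcn3-led cells and none in Obp2a-led cells, against 0.271% and 0.103% of all genes. They were the cytochrome Cyp2f2 (-3.29 ± 0.25, with 46 UMIs in Obp2a-led and 661 in Lcn3-led cells) and the carbonyl reductase Cbr2 (-1.45 ± 0.13). Coagulation factor gene F5 had 2 UMIs in Obp2a-led and 118 in Lcn3-led cells, a ratio relative to the typical gene of 0.0244 (counting interval 0.00292 to 0.0901), and haptoglobin gene Hp had 2 and 90, a ratio of 0.0320 (0.00382 to 0.119). Il33, an alarmin cytokine, had 17 and 225 UMIs, and the chemokine Ccl9 184 and 1055 (-1.99 ± 0.15). None of the 40 ER genes, 20 transport genes, 17 receptor genes, 22 transcription factor genes or 7 mucus genes tested passed in either direction. Of the ER genes the median change was -0.08. Summed leukocyte markers were 387 and 38.5 CPM in Obp2a-led cells against 463 and 236 in Lcn3-led cells, and sustentacular markers 41.3 and 16.0 against 81.3 and 78.8, lower in Obp2a-led cells in both libraries. Summed markers of fibroblasts and mural cells moved in opposite directions in the 2 libraries, at 253 and 16.7 CPM in Obp2a-led cells against 13.0 and 181 in Lcn3-led cells, and the part of these 3 lists in the results was not tested.

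**Figure D4:**
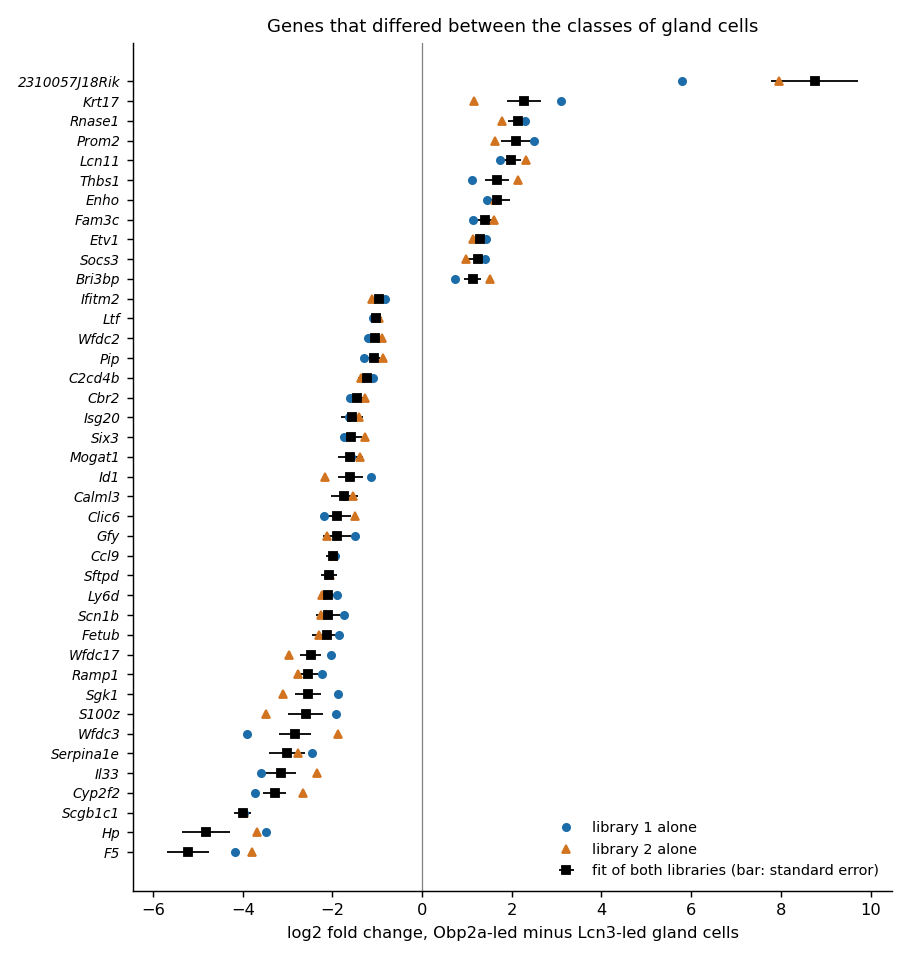
The 40 genes that differed between classes, with the log2 fold change of Obp2a-led minus Lcn3-led cells in the fit of both libraries (squares, bars are standard errors) and in each library alone (circles and triangles). All 40 lie on the same side of 0 in both libraries, and the change of 2310057J18Rik rests on 8 cells.

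Gland cells were next set against 296 non-sensory epithelial cells (Krt19 and Serpina1e at least 3 UMIs each, 153 and 143 per library), which line the side of the lumen without sensory neurons. Beside their own 5 markers, these cells stood above other cells for the basal markers Krt5 and Trp63 (4 basal markers summed to 902 and 1262 CPM) and for all 4 ciliated markers (98.1 and 138 CPM), and 18 of them also meet the rule of the second comparison below. The 5 rule genes and these 2 genes were taken out of the sums and totals. Of 12781 genes tested, 2345 were higher in gland cells (18.3%) and 2622 lower (20.5%), in all 38.9%. These counts are relative to the typical gene (TMM scaling). Since Wfdc18 and the lipocalins take a large part of all gland UMIs, other genes hold a smaller share of the whole. On the scale of all UMIs the median gene was shifted by -1.26 (log2), and 597 genes were higher and 8231 lower. Levels below are CPM, while fold changes, bounds (at least) and ratios of counts are relative to the typical gene. Only some of the genes whose direction differs between these scales are named.

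Abundant secreted products were higher in gland cells. Wfdc18 held 262301 and 301899 CPM in gland cells of libraries 1 and 2 and 6740.2 and 10723 in non-sensory cells, a log2 fold change of 6.25 ± 0.25 (SE, n = 2 libraries per group, edgeR adjusted p = 1.9e-11). Pip had 15359 and 15853 UMIs in gland cells against 25 and 149 (7.71 ± 0.45, adjusted p = 1.1e-09). Ltf held 16339 and 19061 against 2967 and 2274 (3.97 ± 0.19), and A2ml1 12454 and 13867 against 1633 and 1935 (4.11 ± 0.16). For each of these the gland values of both libraries lay above both non-sensory values. Qsox1, a secreted enzyme that forms disulfide bonds, was higher by 6.18 ± 0.21, with 10963 UMIs against 178.

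Of the lipocalin family 7 genes outside the rule could be tested, 3 were higher in gland cells and 2 lower (3 and 3 on the scale of all UMIs), with a median of 0.59 against -0.04 for all genes. Lcn11 held 879 and 620.0 CPM against 5.35 and 4.70, a change of 8.42 ± 0.27 (adjusted p = 2.9e-12). Mup4 and Rbp4 passed as well, but with 19 and 14 UMIs of which 84.2% and 92.9% lay in 1 cell. The iron-scavenging antimicrobial lipocalin Lcn2 was lower in gland cells (-4.19 ± 0.25), at 8.88 and 11.0 against 519 and 319 CPM. Orm1, an acute-phase lipocalin, had no gland UMI against 94, so that it was at least 26.5-fold lower. Of the BPI fold family 3 genes could be tested, none was higher, and Lbp and Pltp were lower (on the scale of all UMIs all 3).

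Mucosal defence genes divided in the same way. Of 15 tested, 9 were higher in gland cells and 4 lower (6 and 5 on the scale of all UMIs, where Sftpd and Cst3 lay below the non-sensory levels). The higher genes were Ltf, Wfdc18, Scgb1c1, Lyz2, Cst3, Sftpd, the zinc-binding glycoprotein Azgp1 (7.26 ± 0.31), clusterin gene Clu (5.15 ± 0.17) and Pigr, the receptor that carries immunoglobulin A across epithelia (2.17 ± 0.15, 332 and 297 against 170.0 and 155 CPM). Lyz2 had opposite signs in the 2 libraries. Lower were Reg3g, a bactericidal lectin, at 58.6 and 39.1 against 7241 and 6048 CPM (-5.85 ± 0.22), Wfdc2 (-1.59 ± 0.14), the defensin Defb1 and complement C3. Of 8 mucus genes 4 were higher, among them Agr2, an ER protein needed for mucin folding (4.68 ± 0.18), and 4 lower, among them the membrane mucins Muc1 and Muc4 (3 and 4 on the scale of all UMIs). Muc5b, a gel-forming airway mucin, had no UMI in gland cells. It stayed under the 10 UMIs needed for a test, so non-sensory cells held few as well.

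Genes of the ER and secretory load were higher almost throughout. Of 40 tested, 39 were higher in gland cells and none lower, with a median of 2.33. On the scale of all UMIs 28 were higher and 3 lower, with a median of 1.11, and the group was mostly higher on both scales. Bhlha15 (Mist1), a transcription factor of secretory cells, had 103 and 91 UMIs in gland cells and none in non-sensory cells, at least 76.4-fold higher. Derl3, of ER-associated degradation, held 196 and 195 against 0.446 and 4.17 CPM (7.67 ± 0.30), and the factor Creb3l1 30.4 and 31.8 against 1.78 and 2.61 (5.02 ± 0.30). Sec11c, a catalytic subunit of the signal peptidase, held 1001 and 1184 against 205 and 195 (3.67 ± 0.15). Sec61b of the translocon (2.49 ± 0.14) and the calcium-binding chaperone Calr (2.35 ± 0.14) were higher as well.

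Among genes of the unfolded protein response, Hspa5 and Xbp1 depended on the scale, whereas most genes of the ER list were higher on both scales. The chaperone Hspa5 (BiP) was higher by 0.63 ± 0.13 relative to the typical gene but held fewer CPM, 566 and 626 against 865 and 931, a change of -0.59 on the scale of all UMIs (adjusted p = 0.000462). Xbp1, a transcription factor of the unfolded protein response, was higher by 1.18 ± 0.14 relative to the typical gene and level on the scale of all UMIs (-0.04, adjusted p = 0.81). Atf4, which acts in the same response, did not pass (-0.18 ± 0.14).

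**Figure D5:**
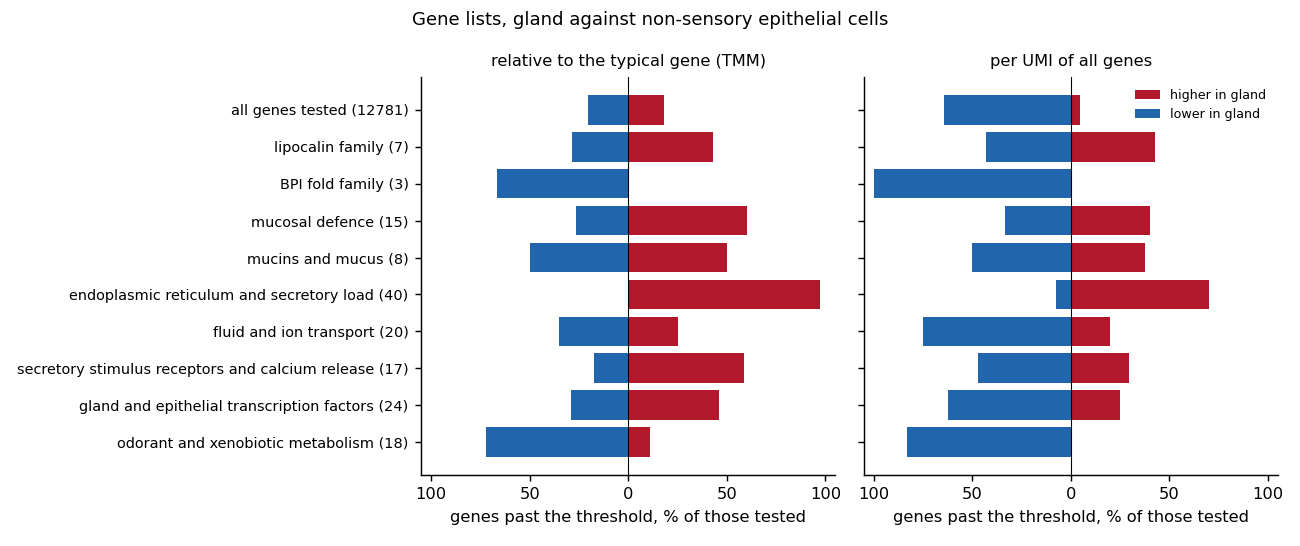
Share of the tested genes of each list that were higher (red) or lower (blue) in gland cells than in non-sensory epithelial cells, relative to the typical gene on the left and per UMI of all genes on the right, with the number tested in parentheses and all genes in the top bar. ER genes were 39 of 40 higher on the left and 28 of 40 on the right, against 2345 and 597 of all 12781 genes.

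Fluid and ion transport genes were mixed, with 5 of 20 higher and 7 lower (4 and 15 on the scale of all UMIs). The higher genes were those of fluid-secreting acini. The calcium-activated chloride channel Ano1 held 41.3 and 45.2 against 0.892 and 3.13 CPM (5.66 ± 0.31), the potassium channel Kcnn4 45.7 and 51.7 against 6.25 and 4.70 (4.34 ± 0.24), and Kcnma1 and the chloride loader Slc12a2 (2.53 ± 0.17) were also higher. The water channel Aqp5 was higher by 1.44 ± 0.18 relative to the typical gene, but at 646 and 713 against 697 and 457 CPM it did not pass on the scale of all UMIs (0.23, adjusted p = 0.22). Aqp4 was lower (-4.01 ± 0.17) and the chloride channel Cftr did not pass (-0.02 ± 0.25).

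Of 17 genes for secretory stimuli and calcium release 10 were higher and 3 lower (5 and 8 on the scale of all UMIs). The muscarinic acetylcholine receptor Chrm3 had 17 and 39 UMIs in gland cells against 1 and 1, a ratio of 33.1 relative to the typical gene (counting interval 8.74 to 280.0), and Chrm1 had 32 against 9 (2.05 ± 0.56). Vipr1, a receptor for vasoactive intestinal peptide, had 76 against 11 (3.01 ± 0.45). The adrenergic receptor Adrb1 was lower (-2.62 ± 0.26). Rab3d (3.17 ± 0.18) and Rab27b (2.12 ± 0.20), which act at secretory granules, were higher. Receptor counts were low in both groups.

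Among transcription factors 11 of 24 were higher and 7 lower (6 and 15 on the scale of all UMIs). Sox10, known from glands and from glia, had 83 and 95 UMIs in gland cells and none in non-sensory cells, at least 70.1-fold higher, and it was found in 45.8% of gland cells (5.46% after thinning) and 0.0792% of macrophages. Elf5, a factor of mammary and other gland epithelium, was higher by 6.22 ± 0.29, Spdef by 4.5 ± 0.42 and Barx2 by 2.01 ± 0.16. The basal cell factor Trp63 (1 UMI against 237) and the epithelial factors Elf3 (-1.77 ± 0.14) and Sox2 (-1.21 ± 0.18) were lower. Enzymes of odorant and xenobiotic metabolism were mostly lower, 13 of 18 with a median of -1.51, among them Gsto1 (-5.33 ± 0.17) and Gsta4 (-3.31 ± 0.15), while Por and Gstm2 were higher relative to the typical gene and not on the scale of all UMIs, where 15 were lower and none higher.

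The largest rises among all genes, apart from those above, included genes with no UMI in non-sensory cells. A230005M16Rik (chr2:25705850-25709716, minus strand), annotated as an antisense RNA and lying between Obp2a and Obp2b, had 175 UMIs in each library, at least 138-fold higher. No source used here says whether its counting used strand, so reads of a gene that it overlaps cannot be told apart from its own. The tight junction gene Cldn2 had 134 and 91 UMIs (at least 88.7-fold) and Gad1, which encodes a GABA-synthesizing enzyme, 68 and 62 (at least 51.2-fold). Mia had 350 UMIs against 1, and 2310057J18Rik 604 against 2 with 48.8% in 1 cell. BC051076 and Dnase1 also had no UMI in non-sensory cells, but 54.5% and 43.3% of their gland UMIs lay in 1 cell. Among the largest falls were Clca3b (0 against 850 UMIs), Lypd2 (1 against 694), Orm1, Mall, Ttc6, Egr4, 4833427G06Rik and the ciliary genes Foxj1, Tmem212 and Dnah5. Of markers of other cell types, all 5 fibroblast and mural genes tested were higher in gland cells, at a summed level of 134 and 120 against 50.9 and 145 CPM, with 55.9% of Dcn in 1 gland cell. Of 4 myoepithelial markers 3 were higher (Acta2, Myh11 and Cnn1) and Krt14 was lower, at a summed 91.7 and 38.8 against 347 and 395 CPM. Their part in the results was not tested.

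A second comparison used 522 cells with at least 5 Cyp2a5 and 1 Fezf2 UMIs, the markers given for sustentacular cells, 279 and 243 per library. It shares its gland sums and 18 comparison cells with the first. These cells did not hold to their label, since 299 had an Omp UMI and 6 of 8 neuronal markers stood above other cells, so they are named by their 2 genes, and list counts against the 223 cells without Omp follow the main ones. Against the 522 cells 5 of 6 fibroblast and mural and 3 of 4 myoepithelial markers were higher in gland cells, and their part was not tested. The 223 cells held leukocyte markers at a summed 8217 and 5552 CPM. Of 14870 genes tested 3145 were higher in gland cells (21.1%) and 3935 lower (26.5%), in all 47.6%. Without Omp cells the numbers were 2310 and 2395 of 12696, and on the scale of all UMIs, where the median gene was shifted by -1.73, they were 679 and 11486.

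The secreted products were higher against these cells as well. Wfdc18 was higher by 8.56 ± 0.19, Pip by 8.56 ± 0.22, Ltf by 7.35 ± 0.13 and Lcn11 by 7.21 ± 0.74. Of 40 ER genes 37 were higher and none lower, with a median of 2.08 against -0.15 for all genes. Without Omp cells 39 were higher and none lower. On the scale of all UMIs 21 were higher and 9 lower, and Hspa5 turned from 1.40 ± 0.11 to -0.18. Of 8 lipocalin genes tested 5 were higher and none lower, whereas without Omp cells 4 were higher and 2 lower (Ptgds and Orm1), and on the scale of all UMIs 3 and 3. Lcn2 was higher by 1.28 ± 0.23 in the main comparison, but without Omp cells it did not pass (-0.37 ± 0.23, adjusted p = 0.237). Of 15 mucosal defence genes 9 were higher and 2 lower (8 and 4 without Omp cells, 6 and 7 on the scale of all UMIs), and of 9 mucus genes 5 and 4 (3 and 1, then 3 and 5).

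The channel and receptor genes also differed from these cells. Of 20 transport genes 9 were higher and 3 lower (8 and 6 without Omp cells, 5 and 13 on the scale of all UMIs), among them Kcnn4 (7.06 ± 0.26) and Aqp5 (6.14 ± 0.19, at 646 and 713 against 22.8 and 35.0 CPM). Chrm3 had 56 UMIs in gland cells and none in the comparison cells, at least 84.2-fold higher, and Vipr1 was higher by 5.55 ± 0.47. Of 19 receptor genes 10 were higher and 4 lower (11 and 4 of 18 without Omp cells, 6 and 12 on the scale of all UMIs). Of 24 transcription factors 16 were higher and 4 lower (15 and 3, then 11 and 9), with Bhlha15 at 194 UMIs against 1, Sox10 at 178 against 2, Creb3l1 at 6.79 ± 0.24 and Foxc1 at 5.10 ± 0.25. Of 18 xenobiotic genes 10 were lower and 4 higher (14 and 1 on the scale of all UMIs), and without Omp cells 11 of 15 were lower and none higher. The largest rises were BC051076, Hsbp1l1, Cldn2, A230005M16Rik, Chrm3, Bhlha15, Adtrp, Klk1b11, Foxa2 and Gad1. Foxa2, an endodermal and epithelial factor, had 40 UMIs in gland cells and none in the comparison cells, at least 60.1-fold higher. Vomeronasal receptor genes made up 8 of the 10 largest falls, the other two being Armh4 and B830012L14Rik, in comparison cells of which 299 of 522 had an Omp UMI.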

How the data were processed

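The data were 3′ single-cell RNA libraries (10x Genomics) of whole adult mouse VNO, 2 libraries. The authors deposited UMI counts per gene and barcode, made with bcl2fastq and Cell Ranger 4 (4.0.0 in the file header) on mm10, with the libraries aggregated. No source used here says whether aggregation equalised depth. The submitters' notes also name Seurat 3.2.3. All 24084 barcodes were filtered anew, and 32235 of 32285 gene identifiers matched GENCODE M21, which gave positions. RefSeq gave the promoter sequences.

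For each library, UMI counts of the cells of a group were added up. Genes reaching 10 UMIs over these sums were tested with edgeR 4.0.16 (R 4.3.3, TMM factors, quasi-likelihood, Benjamini-Hochberg, threshold 0.05). The 5 rule genes, and the 2 that chose the comparison cells, were removed from tables and totals beforehand. SE is the log2 fold change divided by the square root of F. Genes at 0 in a group were bounded with 3 counts over the group, and these bounds and ratios of low counts use the TMM-scaled totals. Intervals cover counting error only. The test was also run on simulated sums with a fixed spread, no library effect and few changed genes. That setting differs from the real sums, so it does not measure the error of the calls here. Members and lists were chosen with earlier results of these data known. Genes named were members of the lists, foremost those with the highest gland level, and, in each direction, the 10 with the largest change among those past the threshold and of the same sign in both libraries. Other genes named were chosen after their values were seen.

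Doublets were marked with Scrublet (scanpy 1.11.5, expected rate 8%) and kept, and left out in an alternative. Cells were thinned to 3000 UMIs for shares of cells with a UMI. Cell groups of the same number come from the same capture, so the numbers pair the samples by design. Correlations of same-numbered deviations from the group means were 0.0861 for gland against non-sensory cells (7787 genes), 0.222 against Cyp2a5 Fezf2 cells (8323 genes) and 0.0973 between leading classes (5292 genes). Alternatives were DESeq2 1.42.0, RLE factors, no filter on low counts, library as a block, other limits on mitochondrial share (10%), lipocalins (10%) and Dmbt1, thinned cells and each library alone. Chosen after seeing the data were the scale of all UMIs, comparison cells without Omp, plain shares for correlations, cells of at least 10000 UMIs, and gland cells without near-equal splits or receptor UMIs. Levels are CPM, counts per 1000000 of all UMIs of a group.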

Additional observations from a re-analysis of the deposited data

How the results depend on the processing

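Gland cells numbered 280 with a mitochondrial limit of 10%, 198 with lipocalins at 10% or more, and 110 to 128 with 1 library left out. With the mitochondrial limit of 10% their median depth was 25620.5 UMIs and their median lipocalin share 21.4%, and with lipocalins at 10% or more that share was 26.9%. Against non-sensory cells, DESeq2 called 1327 genes higher and 1352 lower, the scale of all UMIs gave 597 and 8231, and thinned cells 627 and 657. Against Cyp2a5 Fezf2 cells the scale of all UMIs gave 679 and 11486, thinned cells 875 and 1117, and comparison cells without Omp 2395 lower. Between leading classes, genes higher in Obp2a-led and in Lcn3-led cells numbered 96 and 124 with no filter on low counts, 32 and 72 with the replicate block, 4 and 49 on the scale of all UMIs, 3 and 17 with the mitochondrial limit of 10%, 2 and 9 in thinned cells and 17 and 53 in cells of at least 10000 UMIs, and 7 were higher in Obp2a-led cells without the Dmbt1 condition. On the scale of all UMIs Hspa5 reversed to -0.59 and Xbp1 to -0.036 against non-sensory cells, and Hspa5 to -0.18 against Cyp2a5 Fezf2 cells. The scale itself moves every gene by the same amount. For the other changes, apart from fewer cells, UMIs or genes tested, the cause was not tested. The block gave 2543 higher and 2827 lower genes against non-sensory cells and 3541 and 4331 against Cyp2a5 Fezf2 cells. With 1 library left out no test was possible, and fold changes are given. Libraries may be captures of 1 suspension, and sums over 2 libraries limit the precision.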

Other observations

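The 9 Bpifb1 cells carried a different set of secreted products from gland cells, and the 2 libraries differed within it. Scgb1b7 and Scgb2b7, secretoglobin genes, held 96077 and 63076 CPM in the 5 cells of library 1 but 111 and 100.2 in the 4 cells of library 2. Sbpl held 12515 and 111107, and the trefoil factor Tff2 28659 and 13966. Wfdc18 was abundant in these cells at 136806 and 209273 CPM, and Dmbt1 held 18746 and 12318. Bpifa1 held 26352 CPM in library 1 and had no UMI in library 2. With 9 cells these values describe those cells.

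The 51 barcodes that met every condition apart from mitochondrial share, at 5.04 to 46.8% mitochondrial UMIs, and the 87 that met every condition apart from depth, at 501 to 2906 UMIs, were left out of all sums. Vmn1r220, a vomeronasal receptor gene, had 219 UMIs in gland cells, all in library 2, and 99.5% of them lay in 1 cell.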
